A study of Mus musculus with 24 samples.

Results

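The translation initiation and elongation factors were the protein-coding genes whose symbols begin with Eif1 to Eif6 or with Eef1 or Eef2, without the 4 eIF2 kinases (Eif2ak1 to Eif2ak4) and without the Y-linked Eif2s3y. This rule found 63 of the 21965 genes listed in the count table, and 62 of them were among the 17167 genes tested. No measured value entered the rule. Eif4e1b had no count in any library and was the member left out of the tests. The members Eif4ebp3, Eef1akmt3 and Eif3j2 had 18, 62 and 312 counts summed over all 24 libraries, so no fold is given for them.

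Protein synthesis starts when the small ribosomal subunit, loaded with initiator tRNA by eIF2 and held open by eIF1, eIF1A and eIF3, is brought to a capped mRNA by eIF4F, the assembly of the cap-binding eIF4E, the scaffold eIF4G and the helicase eIF4A. The exchange factor eIF2B recharges eIF2 with GTP and is the point at which stress kinases slow initiation, and mutations in its subunits cause vanishing white matter disease. During elongation eEF1A delivers aminoacyl-tRNA, the eEF1B subunits recharge eEF1A, and eEF2 moves the ribosome along. Oligodendrocytes (OLs), the myelinating cells of the spinal cord, sustain a large output of membrane protein and lipid.

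Libraries came from spinal cord of OL-Ribotag mice, in which a tamoxifen-activated Cre transgene and a conditional Rpl22-HA allele tag the ribosomal protein RPL22 with HA. The tagged ribosomes were immunoprecipitated to give the OL translatome (OL), and RNA of the whole tissue was sequenced beside it (total RNA). All animals carried both alleles and all received tamoxifen, the controls included. The controls were naive, uninjured mice, and the injured mice had a contusion of 50 kdyn at T9, at 10 to 12 weeks of age by the labels, with tissue taken at 2, 10 or 42 days post-injury (dpi). The study's text gives a younger age at injury, and places the collection of the naive mice with that of dpi 42, so the naive mice were older at collection than those of dpi 2. Each of the 8 groups held 3 libraries, each from a pool of mice that the study states were female. OL and total libraries of one pool share tissue. The Cre transgene is also active in Schwann cells, which enter the injured cord. Both libraries of pool 2 at dpi 2 held 2414 to 2604 counts on Y-linked genes against 0 to 13 in the other 22 libraries. The counts of pool 2 are at odds with the stated sex. For 2 of the dpi 42 libraries the title and the description name opposite fractions. They were placed by the description, which the count columns repeat.

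The libraries held 25840127 to 32987841 counts. Summed levels of 8 OL markers were 96300 to 158000 CPM (counts scaled to library size with TMM factors) in OL libraries and 19300 to 27900 CPM in total RNA, higher in every OL library than in any total RNA library. Marker sums of other cell types differed between libraries and with injury. The summed level of 8 microglial and myeloid markers in OL libraries was 10.4 to 16.5 CPM in naive, 70.8 to 91.3 on dpi 2, 218 to 251 on dpi 10 and 139 to 233 on dpi 42, and all 8 rose at each time. In total RNA it went from 181 to 215 CPM up to 3480 to 4730 on dpi 10, while the sum of 7 neuronal markers went from 10000 to 10700 CPM down to 4300 to 5610 on dpi 2. The sum of 6 astrocyte markers, the largest of these other sums in OL, was 1300 to 8450 CPM in naive OL libraries and 1910 to 12200 CPM on dpi 42, which overlap. That of 4 endothelial markers went from 4.29 to 4.97 CPM in naive OL up to 9.37 to 17.3 CPM on dpi 2. Schwann cell markers summed to 1.6 to 634 CPM in naive OL libraries and 1200 to 1390 on dpi 42. The part of these shifts in the results was not tested. In bulk samples, fewer cells of a type and less RNA per cell cannot be told apart.

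A block of the factors was higher in the OL translatome early after injury. On dpi 2, 19 of 62 members rose against naive and 5 fell, a member being called when its adjusted p in the edgeR quasi-likelihood test was under 0.05 and its log2 fold change at least 0.5 in size. Members therefore rose in 30.6% and fell in 8.06%, beside 15.9% higher and 16.4% lower over all genes tested. The median log2 change of the 59 members with a mean of at least 1 CPM was 0.20, and that of all 13677 such genes was -0.04. Without naive OL replicate 3 the member median was 0.085 and with an offset for gene length and GC content in the fit it was 0.1. The excess over all genes was 0.24 in OL and 0.295 in total RNA. The counts moved with sequence composition: with that offset, 14 members were higher and 10 lower. Held calls were fewer: 10 members kept theirs in all 15 alternative analyses, namely Eef1b2, Eef1d, Eef1e1, Eef1g, Eef2kmt, Eif1a, Eif4ebp1, Eif5a and Eif5b as risers and Eif3c as the one that fell. Without pool 2, the pool with the Y-linked counts, 21 members were called.

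Of the 6 members of the elongation factor 1 group, Eef1g, Eef1b2, Eef1d and Eef1e1 rose on dpi 2 and Eef1a2 fell. Over all genes, 15.9% were higher and 16.4% lower. Eef1g, the eEF1B gamma subunit (chromosome 19, 8967041 to 8978479, plus strand, GRCm38), stood at 85.1, 88.7 and 85.3 CPM in the naive OL libraries and at 228, 213 and 254 CPM on dpi 2. The groups did not overlap, and the log2 change was 1.42 ± 0.09 (SE, n = 3 per group, edgeR adjusted p = 2.6e-10). By dpi 10 the level was back to 101, 92.2 and 85.4 CPM, and on dpi 42 it was 121, 128 and 120 CPM. Eef1b2, the catalytic exchange subunit, had 113, 110 and 108 CPM in naive OL and 262, 297 and 276 CPM on dpi 2, a log2 change of 1.33 ± 0.09 (edgeR adjusted p = 9.9e-10). Eef1d, the delta subunit, had 148, 140 and 139 CPM in naive OL and 219, 243 and 244 CPM on dpi 2, with no overlap and a log2 change of 0.72 ± 0.08 (edgeR adjusted p = 4e-07). Eef1e1, which sits in the multi-tRNA synthetase complex, went from 14.8, 12.7 and 10.2 CPM to 21.5, 20.7 and 21.2 CPM, a log2 change of 0.75 ± 0.15.

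**Figure D1:**
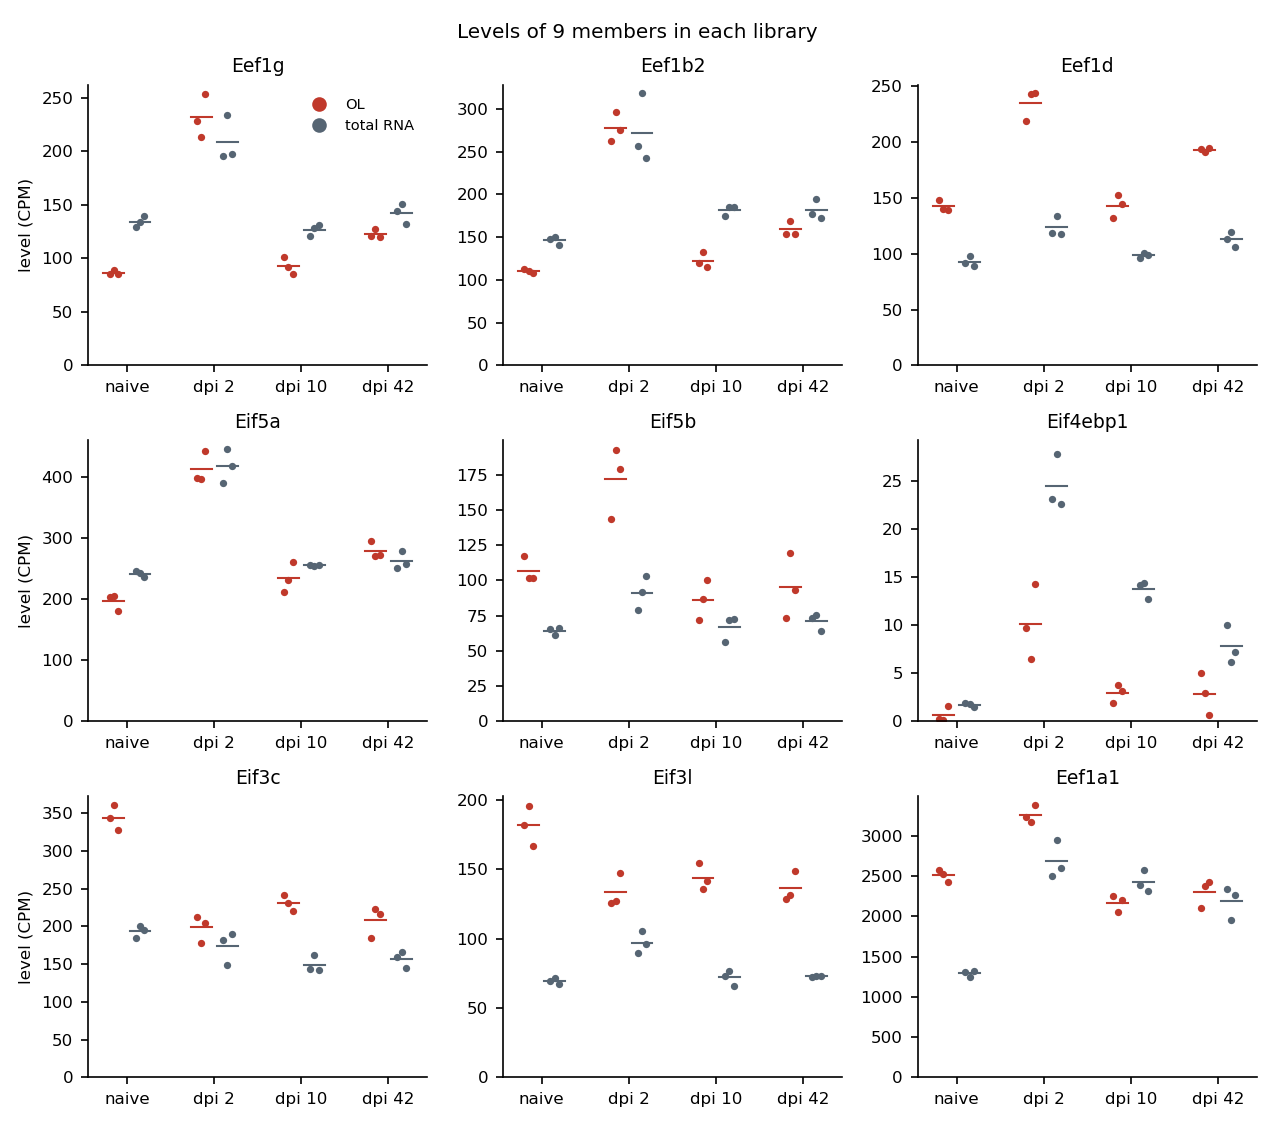
Levels of 9 members in CPM (vertical axis, from 0) in each of the 24 libraries, OL in red and total RNA in grey, by time after injury; points are libraries and bars are group means. Eef1g, Eef1b2, Eef1d and Eif5a stand highest on dpi 2 in OL, Eif3c is lower at every injured time, and Eef1a1 rises in total RNA at each injured time, while its OL libraries run from 2059 to 3382 CPM and stand highest on dpi 2.

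The carrier subunits behaved differently. Eef1a1, the common eEF1A, had 2570, 2532 and 2425 CPM in naive OL and 3237, 3172 and 3382 CPM on dpi 2, a log2 difference of 0.38 ± 0.09 that did not reach the fold used for a call. Eef1a2, the eEF1A of neurons and muscle, fell in OL from 70.5, 50.5 and 53.1 CPM to 29.5, 28.7 and 47.5 CPM on dpi 2 (log2 change -0.72 ± 0.20, edgeR adjusted p = 0.0055) and to 26.9, 33.2 and 36.6 CPM on dpi 10 (-0.85 ± 0.20). The sum of 7 neuronal markers in OL was 472 to 624 CPM in naive, 347 to 618 on dpi 2 and 338 to 430 on dpi 10, and its part in this fall was not tested.

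Several of these genes are known as terminal oligopyrimidine (TOP) mRNAs, whose transcripts begin with a run of pyrimidines and whose translation follows mTORC1. Of 9 members known as TOP mRNAs, 3 rose in OL on dpi 2 (Eef1b2, Eef1d and Eef1g) and none fell, beside 30.6% and 8.06% of all members tested and 15.9% and 16.4% of all genes. In total RNA, Eef1a1, Eef1b2 and Eef1g rose and none of the 9 fell, beside 16.1% and 8.06% of members and 14.3% and 17% of all genes. The 30 bases around the annotated start are shown for the 5 of these 9 that the RefSeq promoter table of GRCm38.p6 holds, from 10 bases before to 20 after the start. Capitals mark a run of at least 5 pyrimidines that begins with C within 5 bases of the start.
Eef1a1, chr9:78481705-78481734, minus strand: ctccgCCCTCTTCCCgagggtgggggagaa
Eef1b2, chr1:63176821-63176850, plus strand: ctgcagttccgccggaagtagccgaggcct
Eef2, chr10:81176621-81176650, plus strand: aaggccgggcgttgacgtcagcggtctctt
Eif3f, chr7:108934405-108934434, plus strand: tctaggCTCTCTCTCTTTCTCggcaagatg
Eif4b, chr15:102073763-102073792, plus strand: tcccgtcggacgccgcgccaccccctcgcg
Such a run was found for Eef1a1 and Eif3f, and these letters are not at the annotated start of the other 3. Over all members in the table, 7 of 47 held one (14.9%), beside 14.5% of the 27025 genes in the table. A match is a description of the letters and not of a start site in use.

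Elongation factor 2 and the enzymes that modify both carriers included some of the larger folds at low levels. Eef2kmt, the lysine methyltransferase of eEF2, rose from 6.3, 7.07 and 8.45 CPM in naive OL to 19.6, 23.4 and 21.7 CPM on dpi 2 (log2 change 1.57 ± 0.22, edgeR adjusted p = 1e-05), and 17.6% of its exon bases overlap Alg1 on the opposite strand. It was 9.16, 9.89 and 8.79 CPM on dpi 10 and 16, 16.5 and 13.8 CPM on dpi 42, where it was called again (1.08 ± 0.22). The eEF1A methyltransferases Eef1akmt1, Eef1akmt2 and Eef1akmt4 rose on dpi 2, by log2 1.12 ± 0.20, 0.78 ± 0.19 and 2.02 ± 0.65. With the length and GC offset these values were -0.01, 0.2 and 1.24 and none was called. Eef2 itself had 1929, 1942 and 1915 CPM in naive OL and 1602, 1497 and 1493 CPM on dpi 2, all lower, a log2 difference of -0.33 ± 0.09 short of the fold used. Eef2k, the kinase that inhibits eEF2, had 14.5, 12.3 and 29.2 CPM in naive OL and 22.2, 21 and 32.3 CPM on dpi 2, and the groups overlapped.

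Eif5a, the hypusine-carrying factor that helps ribosomes through difficult peptide bonds, rose from 204, 205 and 181 CPM in naive OL to 399, 397 and 443 CPM on dpi 2. The groups were far apart, with a log2 change of 1.07 ± 0.09 (edgeR adjusted p = 5.9e-09). It was 212, 231 and 262 CPM on dpi 10 and 295, 271 and 273 CPM on dpi 42, where the log2 change of 0.51 ± 0.09 became -0.02 with the length and GC offset. The enzymes that make hypusine, Dhps and Dohh, were not called on dpi 2. Eif6, which keeps the large subunit from joining early, rose on dpi 2 (61.7, 73.4 and 62 CPM to 100, 106 and 87 CPM, log2 change 0.57 ± 0.14), a value of 0.21 with the offset. Eif5a2 in OL was not called at any time.

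Of the 7 members grouped under start-codon selection and subunit joining, 5 rose on dpi 2 and none fell. Over all genes, 15.9% were higher and 16.4% lower. Eif1ad is counted in this group, and such a role for it was not shown here. Eif1a, which helps the scanning subunit find the start codon, had 15, 14.4 and 11.9 CPM in naive OL and 30.9, 29.9 and 26.6 CPM on dpi 2 (log2 change 1.08 ± 0.16, edgeR adjusted p = 1.4e-05). Eif5b, the GTPase that joins the subunits, had 117, 102 and 102 CPM in naive OL and 144, 192 and 179 CPM on dpi 2 (0.68 ± 0.16). Both groups were separate in these genes. Eif1ax, Eif1b and Eif1ad rose by log2 0.50 ± 0.10, 0.55 ± 0.11 and 0.51 ± 0.15. These 3, like Eif3i and Eif6, lie near the fold used for a call, and lost it in 5 to 7 of the 15 alternatives, mostly when a single OL library was left out. Eif1b was -0.51 with the length and GC offset, a reversal, and Eif1ad was 0.19. Eif1 differed by 0.44 ± 0.10 and Eif5 by 0.01 ± 0.13, and neither was called.

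In the eIF2 and eIF2B groups, Eif2s3x was the member called in OL on dpi 2, beside 15.9% of all genes higher and 16.4% lower. Of 5 carriers of initiator tRNA, Eif2s3x fell on dpi 2 (29, 25.7 and 27.3 CPM to 25.1, 16.1 and 13.8 CPM, log2 change -0.57 ± 0.21), and its reads can be shared with its near-identical Y-linked copy. None of the 5 eIF2B subunits was called in OL at any time. Over all genes, 8.55% were higher and 5.55% lower on dpi 10, and 13.7% and 13% on dpi 42. The eIF2B values on dpi 2 ran from -0.34 ± 0.20 (Eif2b3) to 0.12 ± 0.16 (Eif2b1). Eif2b5, the catalytic subunit, had 63.2, 68.8 and 68 CPM in naive OL and 72.6, 75.1 and 68.2 CPM on dpi 2. That difference of 0.11 ± 0.10 was -0.30 with the offset, so its direction is not settled by these data.

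Of the 14 eIF3 symbols, Eif3k and Eif3i rose on dpi 2 and Eif3c fell, beside 15.9% higher and 16.4% lower over all genes. Eif3c, a core subunit of the complex, had 343, 361 and 328 CPM in naive OL, 213, 178 and 205 CPM on dpi 2, 241, 231 and 220 CPM on dpi 10 and 184, 223 and 216 CPM on dpi 42. Every injured library lay below every naive one, and the log2 changes were -0.79 ± 0.10, -0.58 ± 0.10 and -0.73 ± 0.10. It was the one member called as falling at all 3 times. Eef2, Eif3l, Eif4g3 and Eif2s3x also had every injured OL library below every naive one. The share of all genes separated in this way was not counted. Eef2 (-0.33, -0.40 and -0.46) and Eif3l (-0.44, -0.34 and -0.41) stayed short of the fold used. Eif4g3 (-0.45) and Eif2s3x (-0.57, edgeR adjusted p = 0.063) were not called on dpi 10. Eif3k, a peripheral subunit, had 116, 110 and 98.3 CPM in naive OL and 195, 222 and 179 CPM on dpi 2 (0.88 ± 0.09, edgeR adjusted p = 1.2e-07). Eif3l, which pairs with Eif3k in the complex, went the other way, with 182, 196 and 167 CPM in naive OL and 126, 127 and 147 CPM on dpi 2, a difference of -0.44 ± 0.09 short of the fold used. Within the complex, Eif3k and Eif3c were thus called in opposite directions. Eif3a, the largest subunit, had 182, 177 and 178 CPM in naive OL and 189, 188 and 198 CPM on dpi 2.

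In the cap-binding group, Eif4a1 rose and Eif4g3 fell on dpi 2, beside 15.9% higher and 16.4% lower over all genes. Eif4a1, the main helicase, had 312, 323 and 235 CPM in naive OL and 485, 428 and 425 CPM on dpi 2 (0.62 ± 0.10), without overlap. Eif4g3, a scaffold paralogue, had 352, 361 and 296 CPM and then 216, 187 and 206 CPM (-0.72 ± 0.10, edgeR adjusted p = 3.6e-06), and with the offset -0.38. Eif4g1, the main scaffold, had 375, 400 and 371 CPM in naive OL and 377, 332 and 352 CPM on dpi 2, and the groups overlapped. Eif4e, which binds the cap, had 43.9, 51.3 and 45.7 CPM in naive OL and 56.2, 65.2 and 62 CPM on dpi 2, a difference of 0.38 ± 0.10 short of the fold used. Eif4g2, a scaffold without a cap-binding site for eIF4E, fell later, from 1290, 1190 and 1113 CPM in naive OL to 867, 786 and 745 CPM on dpi 10 (-0.58 ± 0.11) and 677, 794 and 806 CPM on dpi 42 (-0.66 ± 0.11). Those values were -0.27 and -0.14 with the offset.

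The largest fold of any member in OL was that of Eif4ebp1, the repressor that holds eIF4E away from eIF4G until mTORC1 phosphorylates it. It had 0.294, 0.127 and 1.65 CPM in naive OL, 9.75, 6.48 and 14.3 CPM on dpi 2, 1.9, 3.77 and 3.16 CPM on dpi 10 and 5.03, 2.99 and 0.665 CPM on dpi 42. The naive and dpi 2 groups were separate, while those of dpi 42 overlapped the naive ones. The log2 change was 3.85 ± 0.65 on dpi 2, 2.07 ± 0.63 on dpi 10 and 2.05 ± 0.63 on dpi 42. Naive OL levels are a few counts per library in 2 of the 3, so these folds are imprecise, and without naive OL replicate 2 the dpi 42 value was 1.49. In total RNA the level was 1.87, 1.8 and 1.46 CPM in naive and 23.1, 27.9 and 22.6 CPM on dpi 2. It was above the OL level in every library of dpi 2 and overlapped it in naive, and OL enrichment was not called in either group. On dpi 10 and dpi 42 Eif4ebp1 was called lower in OL than in total RNA (log2 -2.22 and -1.42). The dpi 10 call held in all 14 alternatives, and that of dpi 42 was lost in 5 of 15. The microglial and myeloid marker sum in the OL libraries was also above naive at each injured time. Between dpi 2 and dpi 10 it went from 70.8 to 91.3 CPM up to 218 to 251 CPM, while Eif4ebp1 went down. The part of these markers in the Eif4ebp1 values was not tested. Eif4ebp2, the paralogue, was not called against naive at any time, and Eif4enif1, the eIF4E transporter, fell on dpi 2 (-0.59 ± 0.17).

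Fewer members were called at the later times. On dpi 10 Eif4ebp1 rose against naive and Eef1a2, Eif3c and Eif4g2 fell (1.61% and 4.84% of members, beside 8.55% higher and 5.55% lower over all genes). Of these 4 calls, that of Eef1a2 held in all 14 alternatives, and the rise of Eif4ebp1 was lost in 5, with edgeR adjusted p-values of 0.062 to 0.17. On dpi 42, 9 rose and 4 fell (14.5% and 6.45%, beside 13.7% and 13%), with 4 higher and 8 lower under the length and GC offset, and with 12 and 2 from library sizes alone. The 9 were Eef2kmt, Eif4ebp1 and, at log2 changes of 0.51 to 0.69, Eef1akmt1, Eef1akmt2, Eef1b2, Eef1g, Eif1b, Eif3k and Eif5a. Each of them is also named above as a riser of dpi 2, in a comparison with the same naive libraries. Of the 13 calls of dpi 42, 2, the rise of Eef2kmt and the fall of Eif3c, held in all 15 alternatives. With the length and GC offset, Eif1b, Eef1akmt1 and Eif5a turned to -0.43, -0.50 and -0.02 on dpi 42. The direct comparison of times gave 0 members higher and 17 lower on dpi 10 than on dpi 2, beside 9.55% and 7.92% of all genes. Of the 17, 10 held in all 15 alternatives. Between dpi 42 and dpi 10, 3 were higher (Eef2kmt, Eif1b and Eif4ebp2) and 0 lower, beside 1.97% and 3.04%, and none of the 3 held in every alternative. Between dpi 42 and dpi 2, 0 were higher and 12 lower, beside 7.12% and 6.43%. These comparisons share libraries with those against naive.

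In total RNA, 10 members rose and 5 fell on dpi 2 (beside 14.3% and 17% of all genes, and 22 and 4 members from library sizes alone), 4 rose and 6 fell on dpi 10 (12.4% and 13.3%), and 3 rose and 4 fell on dpi 42 (9.15% and 7.76%). Eef1a1 rose at all 3 times, from 1312, 1244 and 1325 CPM in naive to 2506, 2952 and 2603 CPM on dpi 2 (log2 change 1.05 ± 0.09), 2389, 2580 and 2311 CPM on dpi 10 (0.91 ± 0.09) and 2340, 1959 and 2265 CPM on dpi 42 (0.76 ± 0.09). No injured library overlapped a naive one. Of the 5 that fell on dpi 2, Eef1a2 went from 1013, 1117 and 1097 CPM to 538, 430 and 607 CPM on dpi 2 (-1.03 ± 0.19). Eif4a2 went from 518, 499 and 506 CPM to 308, 276 and 324 CPM (-0.75 ± 0.12), and Eif5a2 from 196, 195 and 172 CPM to 73.9, 68 and 68.2 CPM (-1.42 ± 0.21). Eif4g3 changed by -0.68 ± 0.10 and Eif2s3x by -0.80 ± 0.21. The neuronal marker sum fell in the same libraries, and its part in these falls was not tested. Of the 19 risers in OL on dpi 2, 9 rose in total RNA as well, while 10 were not called there. The matching share over all genes was not counted. Of these 10, Eef1d, Eif1ad and Eif3i were not called in the test of OL change against total RNA change given below, and the rest were. Eef1d differed by 0.41 ± 0.08 in total RNA, short of the fold used.

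Against total RNA, the OL translatome of naive mice was enriched for 23 members and depleted of 11, beside 21.7% and 28.6% of all genes. The counts were 19 and 4 on dpi 2 (20.5% and 27.2%), 19 and 8 on dpi 10 (21.2% and 27.3%) and 20 and 6 on dpi 42 (21.1% and 27%). The direction depends on scaling: with library sizes alone the same comparisons gave 4 and 24, 3 and 21, 4 and 24, and 6 and 19. Relative to all genes, the member median was higher by 0.42, 0.31, 0.30 and 0.31 with TMM. With library sizes alone the excess was 0.41, 0.31, 0.30 and 0.31. A change of scaling shifts all genes nearly alike, so this likeness is no separate check. The helicase relative Eif4a3, known for the exon junction complex, was enriched by log2 1.41 ± 0.10 in naive OL (134, 131 and 124 CPM in OL and 48.5, 49.2 and 48.6 CPM in total RNA). Eif3l (1.39 ± 0.09), Eif4a1 (1.28 ± 0.11) and Eif3b (1.19 ± 0.09) followed it, all without overlap. Of the 34 naive calls, 11 held in all 14 alternatives. Over time, 12 members were enriched in all 4 groups, among them the eIF2B subunits Eif2b1 and Eif2b3, and 4 were depleted in all 4 (Eef1a2, Eif1a, Eif4ebp2 and Eif5a2). The share of all genes called in all 4 groups was not counted. With library sizes alone, Eif2b1 was 0.26, 0.29, 0.22 and 0.23 and was called in no group. Eif2b3 then kept its call on dpi 10 and dpi 42 only. Eef1a2 was the most depleted, at -4.21 ± 0.22 in naive.

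**Figure D2:**
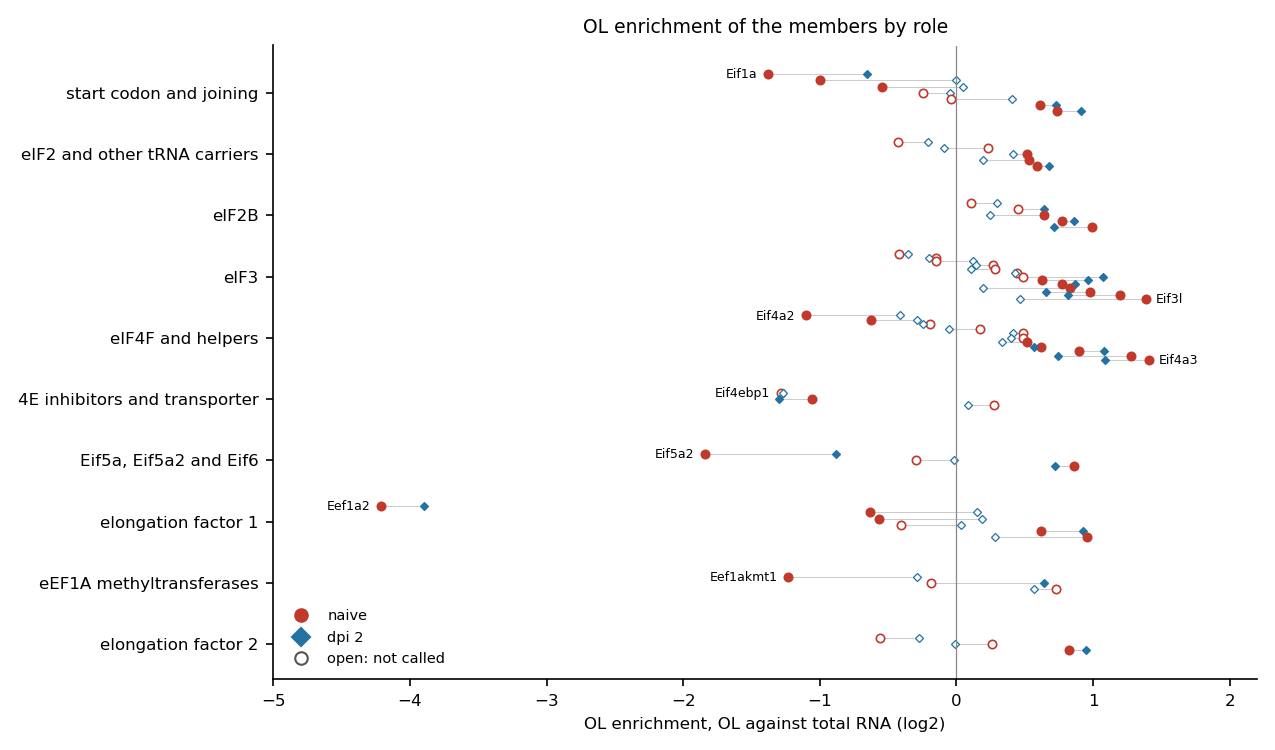
OL enrichment of the 59 members with a mean of at least 1 CPM, as log2 of OL against total RNA (horizontal axis), grouped by role; circles are naive and diamonds dpi 2, filled where called. Eef1a2 lies near -4, while most eIF2B and eIF3 subunits lie to the right of 0.

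Whether OL changed more or less than the tissue was tested as the difference of both changes (differential OL enrichment). On dpi 2 it was higher for 10 members and lower for 4 (beside 7.57% and 5.68% of all genes), on dpi 10 for 2 and 1 (4.27% and 2.94%) and on dpi 42 for 2 and 1 (4.12% and 3.34%). The dpi 2 median of this difference was 0.085 for the 59 members with a mean of at least 1 CPM. It was 0.085 for all 13677 such genes as well, so the medians did not differ. The share of members called higher, 10 of the 62 tested, was above the 7.57% of all genes. Without naive OL replicate 3 the medians were -0.188 for the members and -0.079 for all genes. The 5 dpi 2 calls that held in all 21 alternatives were Eif1ax (1.00 ± 0.13) and Eef1g (0.79 ± 0.13) upward and Eif3l (-0.92 ± 0.13), Eef1a1 (-0.68 ± 0.12) and Eif3c (-0.64 ± 0.14) downward. The other 9 lost the call in at least 1 alternative, Eef1akmt2 in 16. Eif1ax, an X-linked form of eIF1A, had 98.4, 87.4 and 92.9 CPM in naive OL and 129, 122 and 144 CPM on dpi 2, while total RNA went from 193, 179 and 185 CPM to 136, 131 and 129 CPM. The fractions moved in opposite directions. Eef1a1 was lower in this measure at all 3 times (-0.68 ± 0.12, -1.12 ± 0.12 and -0.88 ± 0.12), and this held in every alternative.

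**Figure D3:**
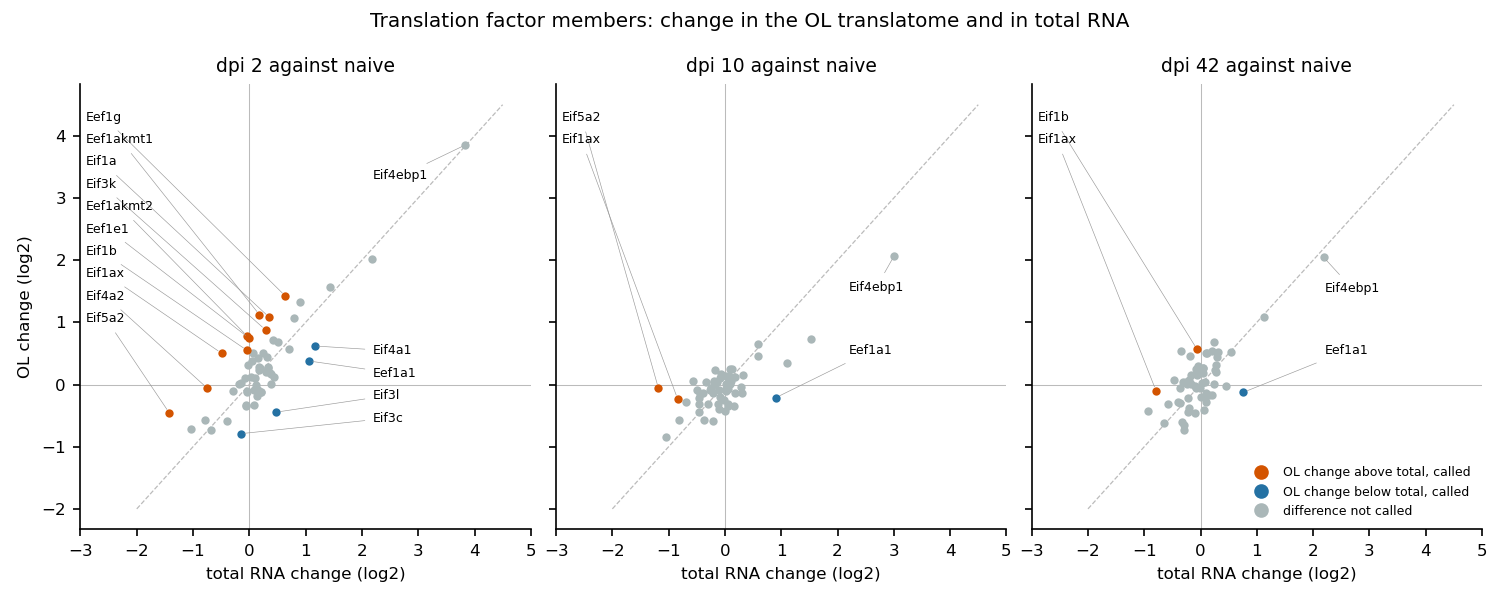
Log2 change in OL (vertical) against log2 change in total RNA (horizontal) for the 59 members with a mean of at least 1 CPM at each time against naive; the dashed line marks equal change. Named points are the members whose 2 changes differed by the test, and Eif4ebp1, which lies at 3.85 and 3.84 on dpi 2.

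Levels of different members were compared per kilobase of exon. In naive OL, Eef1a1 and Eef2 had the highest levels of any member, 1006 ± 30.2 and 580 ± 4.02 CPM per kb (SD, n = 3), followed by Eif4h at 125 ± 12.1. Eif4h and Eif4g2, at 118 ± 8.74, lay within their spread. In naive total RNA, Eef1a1 (519 ± 17.4) and Eef1a2 (516 ± 26.6) did not differ beyond their spread. The ratio of Eef1a1 to Eef1a2 was 36.9 ± 5.82 in naive OL and 81.3 ± 18.8 on dpi 2, and 1.01 ± 0.08 and 4.4 ± 1.16 in total RNA. Eif4a1 to Eif4a2 stood at 1.51 ± 0.18 in naive OL and 2.47 ± 0.42 on dpi 2, and 0.29 ± 0.01 and 1.1 ± 0.19 in total RNA. Eif5a to Eif5a2 was 8.27 ± 1.75 in naive OL and 24.2 ± 8.01 on dpi 2, and 2.73 ± 0.15 and 12.7 ± 1.4 in total RNA. Eif4g1 to Eif4g3 was 1.73 ± 0.15 in naive OL and 2.64 ± 0.05 on dpi 2, and 1.88 ± 0.09 and 2.97 ± 0.34 in total RNA. In these 4 of the 6 pairs compared, the ratio was higher on dpi 2 than in naive in both fractions, with no overlap between naive and dpi 2 libraries. The other 2 pairs did not share this pattern. Eif1 to Eif1b was 1.38 ± 0.05 in naive OL and 1.28 ± 0.06 on dpi 2, and 0.62 ± 0.04 and 0.80 ± 0.02 in total RNA. Eif4e to Eif4e2 was 1.28 ± 0.16 in naive OL and 1.37 ± 0.11 on dpi 2, and 1.72 ± 0.17 and 1.41 ± 0.12 in total RNA. The OL and total RNA libraries overlapped for Eif4g1 to Eif4g3 both in naive and on dpi 2, and for Eif4e to Eif4e2 on dpi 2. These ratios carry no test of their own.

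**Figure D4:**
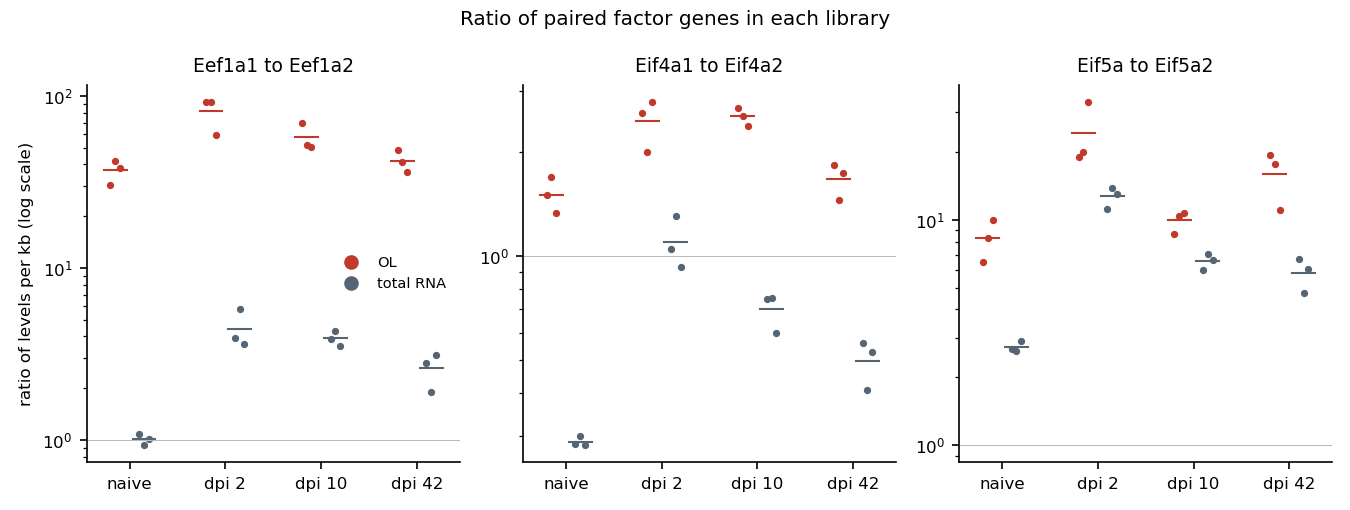
Ratio of levels per kb for 3 of the 6 pairs of related factors in each library (log axis), OL in red and total RNA in grey, with bars at the group means. The OL ratio lies above the total RNA ratio at each time, most widely for Eef1a1 to Eef1a2, at 36.9 against 1.01 in naive.

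Genes that control these factors were counted from lists. Of 12 regulators of initiation, 5 rose and none fell in OL on dpi 2, beside 15.9% higher and 16.4% lower over all genes. The risers included Atf4 (log2 change 1.60 ± 0.13), the transcription factor translated when eIF2 is phosphorylated, Ddit3 (1.20 ± 0.16) and Ppp1r15a (1.02 ± 0.17), the phosphatase subunit that reverses that phosphorylation. In total RNA 4 of the 12 rose and 2 fell (beside 14.3% and 17%), with Ppp1r15a at 1.19 ± 0.17, Ddit3 at 0.92 ± 0.16 and Atf4 at 0.54 ± 0.13. Of 13 genes of mTORC1 and MNK signalling, 2 rose and 5 fell in OL, the falls including Mtor (-1.34 ± 0.19), Tsc1 (-1.08 ± 0.14) and Tsc2 (-0.85 ± 0.12). In total RNA 3 of the 13 rose and 4 fell, with Mtor at -1.37 ± 0.19 and Tsc1 at -1.09 ± 0.14. Of 12 genes of poly(A) binding, recycling and termination, 2 rose and 1 fell in OL, and of 6 mitochondrial translation factors 1 rose (Tsfm, 1.18 ± 0.20). On dpi 10 the regulators had no calls and mTORC1 and MNK had 1 fall (beside 8.55% higher and 5.55% lower over all genes). On dpi 42 the regulators gave 2 rises and 1 fall and mTORC1 and MNK gave 4 falls (beside 13.7% and 13%).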

How the data were processed

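The authors deposited raw counts of reads per gene for 24 libraries, made by alignment with STAR to mm10 and counting with HTSeq (0.10.0, with FastQC 0.10.1 named in the submitters' processing notes). The annotation release, strand setting and handling of multi-mapping reads are not given in the sources used here, so overlapping genes and near-identical copies (Eef1a1 and its pseudogenes, Eif2s3x and Eif2s3y) are uncertain. All 24 count columns were matched to samples. Symbols, lengths and GC content came from GENCODE M21. Genes with at least 10 summed counts were tested in edgeR 4.0.16 (R 4.3.3, TMM factors, quasi-likelihood test, Benjamini-Hochberg adjustment) in one fit over all 8 groups without a block, and DESeq2 1.42.0 was an alternative. A call needed an adjusted p under 0.05 and a log2 fold change of 0.5. Other alternatives were DESeq2 size factors, library sizes alone, no filter, the compared groups only, a replicate block, a length and GC offset centred at 0, each library left out, and, chosen after seeing the data, leaving out pool 2 of dpi 2 and the 2 dpi 42 libraries with conflicting labels. The scripts were tested on simulated data. Members were described by role, and those named with values in each library were, per OL comparison, the 3 rising and 3 falling calls of smallest p, with a fixed set of central factors. The members and lists were chosen with earlier results of these data known. OL and total libraries of one tissue pool come from the same animals and are paired by pool. Their deviations from the group means correlated at -0.05 to 0.20, and those of libraries sharing a replicate number across times at -0.30 to 0.26. The block was the pool for OL enrichment and the replicate number elsewhere. P-values measure the spread between libraries of different pools within a group, estimated over both fractions together. In the main fit, OL and total RNA libraries of one pool were treated as independent. The limit that a count of 0 allows covers counting error only, and its 3 counts correspond to 0.105 to 0.127 CPM in OL libraries and 0.084 to 0.0984 CPM in total RNA.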

Additional observations from a re-analysis of the deposited data

Results flagged for a closer look

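The members below were picked out because their change in OL and their change in total RNA differed by the test of that difference (edgeR, adjusted over all genes). Values are the log2 OL change minus the log2 total RNA change.

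On dpi 2 the OL change was the higher one for Eif1ax (1.00), Eif5a2 (0.97), Eef1akmt1 (0.94), Eef1akmt2 (0.82), Eef1g (0.79), Eef1e1 (0.76), Eif1a (0.72), Eif4a2 (0.69), Eif3k (0.59) and Eif1b (0.59). It was the lower one for Eif3l (-0.92), Eef1a1 (-0.68), Eif3c (-0.64) and Eif4a1 (-0.54). For Eif5a2 and Eif4a2 the OL level was not called and the total RNA level fell, in tissue whose neuronal marker sum also fell. The part of the neuronal RNA in these values was not tested.

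On dpi 10 the difference was 1.12 for Eif5a2, 0.60 for Eif1ax and -1.12 for Eef1a1. On dpi 42 it was 0.69 for Eif1ax, 0.63 for Eif1b and -0.88 for Eef1a1. Eef1a1 is the member with this difference at all 3 times together with Eif1ax, in opposite directions. The microglial and myeloid marker sum in total RNA was 181 to 215 CPM in naive and 1290 to 1520, 3480 to 4730 and 1990 to 3020 CPM at the injured times, and its part in the Eef1a1 values was not tested.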

How the results depend on the processing

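Of 254 recomputed counts of called members, 226 stayed within 1.5 times the main count and 28 did not. With the length and GC offset the count was 9 instead of 4 for the OL change on dpi 10, 16 instead of 10 and 12 instead of 7 for total RNA on dpi 10 and 42, and 7 instead of 12 for OL on dpi 42 against dpi 2. With library sizes alone it was 26 instead of 15 for total RNA on dpi 2 (22 higher, 4 lower) and 5 instead of 3 for differential OL enrichment on dpi 42, which was also 5 with the DESeq2 Wald test. With only the groups compared it was 9 instead of 14 for differential OL enrichment on dpi 2, 0 instead of 3 for dpi 42 against dpi 10 and 5 instead of 12 for dpi 42 against dpi 2. Without the 2 dpi 42 libraries with conflicting labels, dpi 42 against dpi 10 gave 1. The cause was not tested.

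Leaving out 1 library gave 19 to 21, 3 to 5 and 6 to 15 calls for the OL change on dpi 2, 10 and 42, 14 to 17, 10 to 12 and 5 to 8 for total RNA, and 33 to 39, 22 to 24, 26 to 30 and 24 to 28 for OL enrichment in naive and on dpi 2, 10 and 42. It gave 8 to 13, 2 to 5 and 2 to 9 for differential OL enrichment, 14 to 16 for dpi 10 against dpi 2, 0 to 2 for dpi 42 against dpi 10 and 7 to 12 for dpi 42 against dpi 2.

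With the replicate number as a replicate block the OL change gave 24, 5 and 13 calls on dpi 2, 10 and 42. The replicate numbers of different times name different animals, and their deviations did not correlate throughout. With the tissue pool as the block, which pairs OL and total RNA of the same animals, OL enrichment gave 35, 23, 28 and 26 calls and differential OL enrichment 13, 3 and 3. Of the named values, the block ended one call, Eef2kmt on dpi 42 against dpi 10 (adjusted p = 0.062, edgeR). Of 1426 recomputed values of named members, 5 turned direction, all with the length and GC offset: Eif2b5 in OL on dpi 2 (-0.30) and dpi 42 (-0.36), Eif5a in OL on dpi 10 (-0.052) and dpi 42 (-0.018), and Eif4e in OL on dpi 42 (0.32). Another 96 lost the call and 21 gained one. Outside these named values, other calls turned with the offset as well. Eif1b in OL was -0.51 on dpi 2 and -0.43 on dpi 42, and Eef1akmt1 was -0.01 and -0.50.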
